A study of Homo sapiens with 4 samples.

Results

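Replication-dependent histone genes are read without the help of polyadenylation. NPAT and FLASH (the product of CASP8AP2) sit at these genes in the histone locus body and drive their transcription in S phase, and the RNA is then cleaved behind a short stem-loop. SLBP binds the stem-loop, the U7 snRNP with its own Sm-like proteins LSM10 and LSM11 pairs with the RNA downstream, and a cleavage complex that holds CPSF2, the endonuclease CPSF3, the scaffold SYMPK and CSTF2 makes the cut. ERI1 (3′hExo) is an exonuclease that binds the same stem-loop and trims histone mRNA ends. The 10 genes for these factors were taken by symbol from the deposited counts, which hold 19901 genes, and all 10 passed the count minimum used here (at least 50 counts in all 4 libraries), as did 12612 genes of the table in all.

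The libraries are TT-Seq, in which cells are fed 4-thiouridine (4sU) briefly and the labelled new RNA is biotinylated and purified, so that counts over a gene follow its nascent transcription more than its stable mRNA. HCT116, a human colon carcinoma cell line, carried a degron tag on both copies of KAP1 (TRIM28) in all 4 libraries. The cells come from 1 sorted clone (CloneD5). They were grown in full serum and received DMSO or the ligand dTAG-13, which sends tagged KAP1 to the proteasome, for 8 h before 10 min of 500 μM 4sU, with 2 biological replicates per condition. Each replicate pooled several dishes. Gene counts per library ranged from 93105627 to 102314741. The epithelial markers EPCAM, KRT8, KRT18, KRT19 and CDH1 had between 12215 and 43667 counts per library, while the leukocyte gene PTPRC had at most 1. Among these epithelial genes CDH1 stood highest at 0.24 and KRT19 lowest at -0.22 (log2 fold change), and none was called by edgeR. Of 7 markers of other cell types 1 was tested, the collagen gene COL1A1 at -0.12, and their summed CPM was 5.54 to 6.45 per library, against 1044 to 1147 for the epithelial genes. TRIM28 RNA fell by 0.37 on the log2 scale (adjusted p = 0.019, edgeR quasi-likelihood), which does not check the depletion, since dTAG-13 acts on the protein. In bulk libraries, fewer expressing cells and less new RNA per cell cannot be told apart.

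The substrate of SLBP and ERI1 can be read at the 3′ ends of the histone genes themselves. An exact stem-loop of 6 paired bases around a loop of 4 was sought in hg38, with GG opening the stem and TT the loop. The search covered 150 bases before to 100 after the end of the counted interval. It found a match for 38 of 65 replication-dependent histone genes, among them 23 of the 40 tested. H2BC15 and H2AC16 hold the same site, which counts for both. Some genes without a match have long counted intervals, such as H2AC6 with 14973 bases. A missing match near the interval end therefore does not show that a gene lacks a stem-loop. The core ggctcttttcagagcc stood in 25 genes, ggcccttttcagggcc in 7 and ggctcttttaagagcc in 4. To show the site, the tested gene with the highest DMSO mean was taken for each of these cores, with 5 bases on either side and the paired stem in capitals.
H1-4 (chr6:26157090-26157115, plus strand): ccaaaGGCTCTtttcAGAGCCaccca
H4C3 (chr6:26104312-26104337, plus strand): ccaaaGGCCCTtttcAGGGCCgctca
H2BC12 (chr6:27146361-27146386, minus strand): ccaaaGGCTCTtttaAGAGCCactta
With dTAG, H1-4 fell by 0.52, H4C3 by 0.60 and H2BC12 by 0.55 on the log2 scale. Their adjusted p by the edgeR quasi-likelihood test were 0.0086, 0.0014 and 0.0015.

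With KAP1 depletion, nascent NPAT RNA was higher, and no other gene of the 10 passed the test. Across the 12612 tested genes, 7.10% were called at an adjusted p under 0.05 and 3.44% were called higher, so that 1 called gene of 10 is near the background. The split of calls turned on the scaling: 434 of the 895 calls were higher, against 255 of 1124 with upper-quartile scaling, 819 of 1364 with the ERCC factor as a covariate and 1343 of 2284 with GC and length trends removed. The median log2 fold change over the 10 genes was 0.082, against -0.015 for all tested genes, and their changes ran from -0.026 (SLBP) to 0.31 (NPAT). Of the 10 genes, 5 had both dTAG libraries above both DMSO libraries and 0 had both below. In the whole table, 58.8% of genes did not overlap between conditions and 28.1% did so with dTAG above. Relative to the DMSO mean, the per-library medians of the 10 genes were 0.040 and -0.040 with DMSO against 0.11 and 0.078 with dTAG (log2). All 10 changes stayed below the 1.5-fold level.

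**Figure D1:**
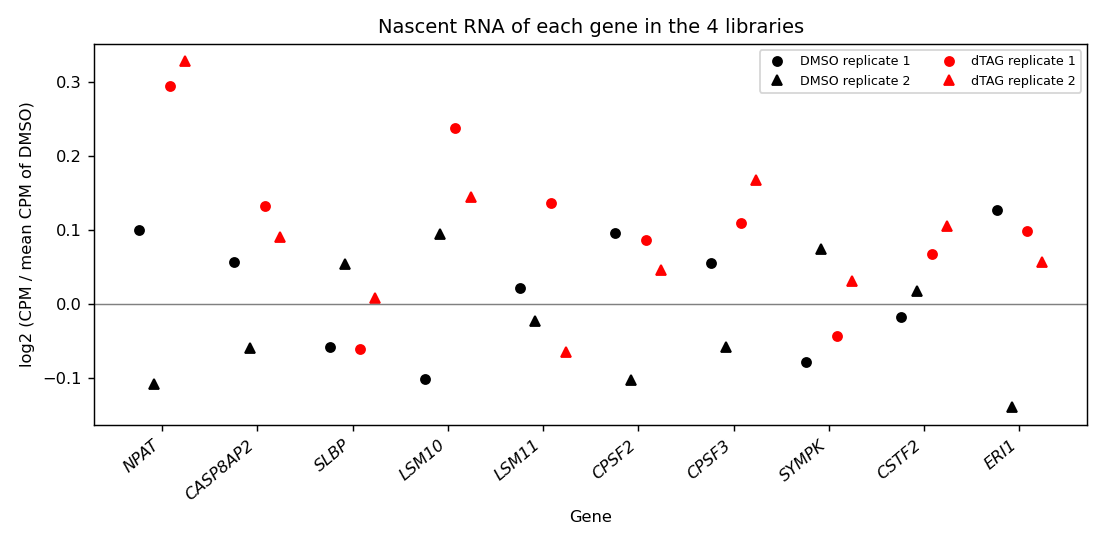
Nascent RNA of the 10 genes in each library, as log2 of the CPM (counts scaled to the TMM library size) over the mean CPM of the 2 DMSO libraries (y axis) per gene (x axis). Black symbols are DMSO and red are dTAG, circles replicate 1 and triangles replicate 2. For NPAT both red symbols lie clear above both black ones, whereas for SLBP, LSM11, CPSF2, SYMPK and ERI1 the conditions overlap.

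NPAT (ENSG00000149308.16) is the coactivator that cyclin E-CDK2 phosphorylates at histone genes. Its counted interval in hg38 runs from 108157214 to 108222642 on chromosome 11, minus strand, and covers exons and introns. In CPM, counts scaled to the TMM library size, NPAT stood at 88.4 and 76.5 with DMSO and at 101.1 and 103.5 with dTAG. Both dTAG libraries were above both DMSO libraries, and the 2 dTAG values lay closer together than the 2 DMSO values. The means were 82.5 ± 8.37 CPM (SD, n = 2) with DMSO and 102.3 ± 1.69 CPM (SD, n = 2) with dTAG. This gave a log2 fold change of 0.31 (standard error 0.088, 95% interval 0.13 to 0.49), a 1.24-fold rise with an adjusted p = 0.037 (edgeR quasi-likelihood, Benjamini-Hochberg over 12612 genes). The rise was called in 9 of 16 alternative settings and was positive in all 16, with an adjusted p from 1.6e-07 to 0.86. Calls were made with DESeq2 (10.1% of all genes called), the likelihood ratio test (12.6%), a minimum of 10 counts (6.05%), no count filter (8.12%), the GC and length trends removed without and with the replicate block (18.1% and 20.8%), the crossed block (25.3%) and either DMSO library left out. The crossed block was chosen after seeing the data, so its call of NPAT is no further support. NPAT lost its call with upper-quartile scaling (0.24, adjusted p = 0.074, edgeR, 8.91% of genes called) and with the replicate block (0.31, adjusted p = 0.13, edgeR, 2.70% called). With the ERCC factor as a covariate it stood at 0.15 (adjusted p = 0.15, edgeR, or 0.22 by the likelihood ratio test, which called 9.76% of genes). It has no value among genes that overlap no other gene, of which 7.74% were called. With ERCC totals as library sizes, NPAT stood at 0.93 (adjusted p = 0.47, edgeR, 0.00% called). The median tested gene stood at 0.63 there, so a positive sign in that setting says little about NPAT. Without dTAG replicate 1 or dTAG replicate 2, NPAT stood at 0.33 and 0.30 with adjusted p = 0.40 and 0.86 by edgeR. In these 2 fits 1.09% and 0.535% of all genes were called.

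CASP8AP2 (ENSG00000118412.12, chr6:89829893-89874436, plus strand) encodes FLASH, which binds NPAT in the histone locus body and LSM11 in the U7 snRNP. It had 91.9 and 84.8 CPM with DMSO and 96.9 and 94.1 CPM with dTAG. The dTAG libraries were both above the DMSO libraries, but the distance between the nearest values was smaller than the gap between the DMSO libraries. The log2 fold change was 0.11 (standard error 0.084, 95% interval -0.062 to 0.29), with an adjusted p = 0.40 by edgeR. Whether NPAT changed more than CASP8AP2 was not tested.

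The start sites of these activators are shown because NPAT is the called gene and CASP8AP2 its partner. Windows of 300 bases around the start were taken from RefSeq (GRCh38.p14), and capitals mark CCAAT on either strand and any of 4 E2F-type words on either strand. These words are TTGGCGC as the first form, with TTCCCGC as the second form, TTCGCGC as the third form and TTGCCGC as the last form.
NPAT (chr11:108222589-108222888, minus strand): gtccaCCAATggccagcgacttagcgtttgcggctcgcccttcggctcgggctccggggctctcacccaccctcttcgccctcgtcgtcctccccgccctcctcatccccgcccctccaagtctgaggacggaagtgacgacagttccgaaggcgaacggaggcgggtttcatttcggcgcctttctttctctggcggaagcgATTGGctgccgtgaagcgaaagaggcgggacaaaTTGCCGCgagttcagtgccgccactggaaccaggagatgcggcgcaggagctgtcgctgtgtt
CASP8AP2 (chr6:89829630-89829929, plus strand): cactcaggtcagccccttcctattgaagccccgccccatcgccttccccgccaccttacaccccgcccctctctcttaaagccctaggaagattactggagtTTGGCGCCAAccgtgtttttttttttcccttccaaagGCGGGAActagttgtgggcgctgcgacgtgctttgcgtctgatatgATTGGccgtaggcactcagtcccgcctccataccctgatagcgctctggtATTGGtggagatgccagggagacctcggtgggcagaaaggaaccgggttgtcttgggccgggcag
The NPAT window held 1 E2F-type match and 2 CCAAT matches. The CASP8AP2 window held 3 and 2, with 2 of its E2F-type matches overlapping each other. Of the 9 genes with a RefSeq window used here, 4 (NPAT, CASP8AP2, CPSF3 and CSTF2) had an E2F-type match and 4 (NPAT, CASP8AP2, LSM10 and CPSF2) a CCAAT match. Among 35116 promoter windows of the same length, 13.0% and 34.6% had these letters. A match of letters is not a measured binding site.

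NPAT starts 159 bases from ATM, the DNA damage kinase gene, which is read in the opposite direction, and the counted intervals share 160 bases, or 0.245% of NPAT. ATM had 127.2 and 107.8 CPM with DMSO and 129.6 and 137.7 CPM with dTAG. Its log2 fold change was 0.19 (95% interval -0.0037 to 0.38) and it was not called (adjusted p = 0.20, edgeR). In the counts, 420 of 420 genes that lie wholly inside another gene on the same strand had 0 counts in all libraries, while 487 of 608 that lie inside a gene on the opposite strand had counts. A read in the shared part of NPAT and ATM was therefore assigned by its strand. A further 3 of the 10 genes start within 1000 bases of an opposite gene. NDUFB1, a respiratory chain gene 19 bases from CPSF2, stood at -0.24 (adjusted p = 0.18, edgeR), and CPSF2 at 0.068. ITGB1BP1 was 20 bases from CPSF3 and stood at 0.079 (adjusted p = 0.66, edgeR). FOXA3, 698 bases from SYMPK, stood at -0.27 (adjusted p = 0.30, edgeR). None of these 4 neighbors was called, and they were chosen by distance after the values of the 10 genes had been seen.

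LSM10 and LSM11 take the place of the spliceosomal SmD1 and SmD2 proteins in the U7 snRNP. LSM10 (ENSG00000181817.5, chr1:36391237-36397892, minus strand) had 18.8 and 21.5 CPM with DMSO and 23.8 and 22.3 CPM with dTAG. The dTAG libraries were both higher, and the nearest values of the 2 conditions were close to each other. The log2 fold change was 0.19 (standard error 0.11, 95% interval -0.041 to 0.43), with an adjusted p = 0.28 by edgeR. With the ERCC factor as a covariate it was 0.37 (adjusted p = 0.022, edgeR), and with the trends on GC content and gene length removed 0.34 (adjusted p = 0.0052, edgeR). In these fits 10.8% and 18.1% of all genes were called. The ERCC factor, from 14 spike-in RNAs, was -0.062 and 0.81 with DMSO and -0.19 and -0.56 with dTAG. It thus went partly with treatment, and fits that hold it cannot fully separate it from treatment. The range of the adjusted p over all 17 settings was 0.0017 to 0.95. Since the call of LSM10 turned on the correction of the libraries, its start site is shown with the CCAAT letters in capitals.
LSM10 (chr1:36397859-36398158, minus strand, RefSeq GRCh38.p14): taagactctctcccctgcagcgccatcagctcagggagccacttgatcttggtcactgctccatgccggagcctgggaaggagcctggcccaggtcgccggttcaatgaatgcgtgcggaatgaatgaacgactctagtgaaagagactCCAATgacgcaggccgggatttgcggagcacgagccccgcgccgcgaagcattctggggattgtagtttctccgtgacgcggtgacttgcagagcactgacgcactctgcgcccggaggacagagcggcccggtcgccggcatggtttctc
LSM11 (ENSG00000155858.5, chr5:157743694-157760709, plus strand) had the fewest counts of the 10 genes, from 696 to 888 per library. It stood at 8.19 and 7.94 CPM with DMSO and 8.87 and 7.71 CPM with dTAG, so that the dTAG libraries lay on either side of the DMSO libraries. The log2 fold change was 0.041 with the largest standard error of the 10, 0.15 (95% interval -0.26 to 0.34, adjusted p = 0.88, edgeR).

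In the cleavage complex, none of the 4 genes passed the test. CPSF3 (ENSG00000119203.13, chr2:9423567-9473101, plus strand), the endonuclease, had 67.3 and 62.1 CPM with DMSO and 69.8 and 72.7 CPM with dTAG. Both dTAG libraries were above both DMSO libraries, and the log2 fold change was 0.14 (95% interval -0.039 to 0.32, adjusted p = 0.30, edgeR). CPSF2 (ENSG00000165934.12, chr14:92121936-92172145, plus strand), its partner of the same protein family, had 105.8 and 92.1 CPM with DMSO and 105.1 and 102.2 CPM with dTAG. DMSO replicate 1 was above both dTAG libraries, and the log2 fold change was 0.068 (95% interval -0.11 to 0.25, adjusted p = 0.64, edgeR). SYMPK (ENSG00000125755.18, chr19:45815409-45863290, minus strand), the scaffold symplekin, had 126.1 and 140.1 CPM with DMSO and 129.2 and 136.0 CPM with dTAG. The dTAG values lay between the DMSO values, with a log2 fold change of -0.0057 (95% interval -0.19 to 0.17, adjusted p = 0.97, edgeR). CSTF2 (ENSG00000101811.13, chrX:100820358-100840932, plus strand), an RNA-binding subunit, had 23.2 and 23.7 CPM with DMSO and 24.6 and 25.2 CPM with dTAG. The dTAG libraries were a little higher, with a log2 fold change of 0.086 (95% interval -0.13 to 0.30, adjusted p = 0.61, edgeR). CSTF2 has a close intronless copy, CSTF2T, which stood at 0.0068, and exonic reads may be split between the copies.

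SLBP (ENSG00000163950.12, chr4:1692799-1712555, minus strand), the stem-loop binding protein that stays with histone mRNA through export and translation, had 133.8 and 144.7 CPM with DMSO and 133.6 and 140.1 CPM with dTAG. The 2 conditions overlapped almost fully. The log2 fold change was -0.026 (standard error 0.085, 95% interval -0.20 to 0.15), with an adjusted p = 0.87 by edgeR. ERI1 (ENSG00000104626.14, chr8:9002146-9116746, plus strand) had 173.0 and 143.8 CPM with DMSO, and its dTAG values of 169.7 and 164.7 CPM lay between them. Its log2 fold change was 0.078 (95% interval -0.12 to 0.27), with an adjusted p = 0.61 by edgeR. These intervals are for each gene alone, whereas a call needed an adjusted p under 0.05. With 2 libraries per condition, an interval clear of no change was thus not enough for a call.

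**Figure D2:**
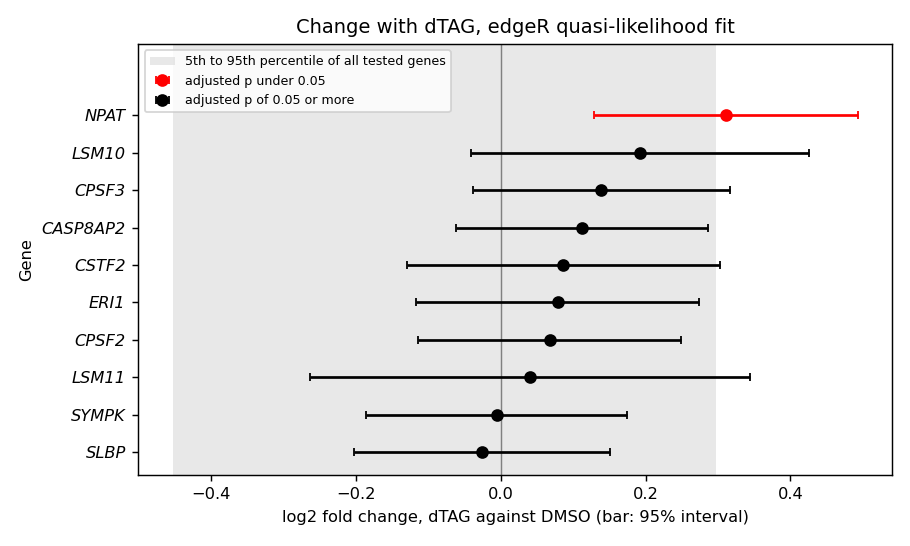
Log2 fold change of dTAG against DMSO (x axis) for each gene (y axis), from the edgeR quasi-likelihood fit over all tested genes. Bars are 95% intervals, red marks an adjusted p under 0.05, and the grey band spans the 5th to 95th percentile of all tested genes (-0.45 to 0.30). NPAT alone is red and lies just beyond the band at 0.31.

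The 2 DMSO libraries did not differ in the same way for all 10 genes, and the direction went with base composition for most of them. NPAT, CPSF2, ERI1, CPSF3, CASP8AP2 and LSM11, with 39.6% to 43.3% GC over the gene, were lower in DMSO replicate 2 than in DMSO replicate 1. SLBP, LSM10 and SYMPK, with 47.0% to 51.6% GC, were higher in it, and CSTF2, with 38.9% GC, was slightly higher. Across all tested genes the log2 fold change went with GC content (Spearman's rho -0.56, with genes that share the same 4 libraries), and the median gene had 44.9% GC. With each library's trends on GC content and gene length removed, NPAT kept a positive change of 0.20 (adjusted p = 0.0086, edgeR), and the median of the 10 genes was 0.038. CASP8AP2, CPSF3 and ERI1 were then at 0.046, 0.062 and -0.020. Without DMSO replicate 1, CASP8AP2, CPSF2, CPSF3, ERI1 and NPAT were called higher by edgeR, at 0.17, 0.17, 0.20, 0.22 and 0.42. In that fit 43.4% of all genes were called, and 22.1% were called higher. Without DMSO replicate 2, 1 of the 10 was called, NPAT at 0.21 (adjusted p = 0.030, edgeR), where 11.8% of all genes were called and 6.40% were called higher.

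**Figure D3:**
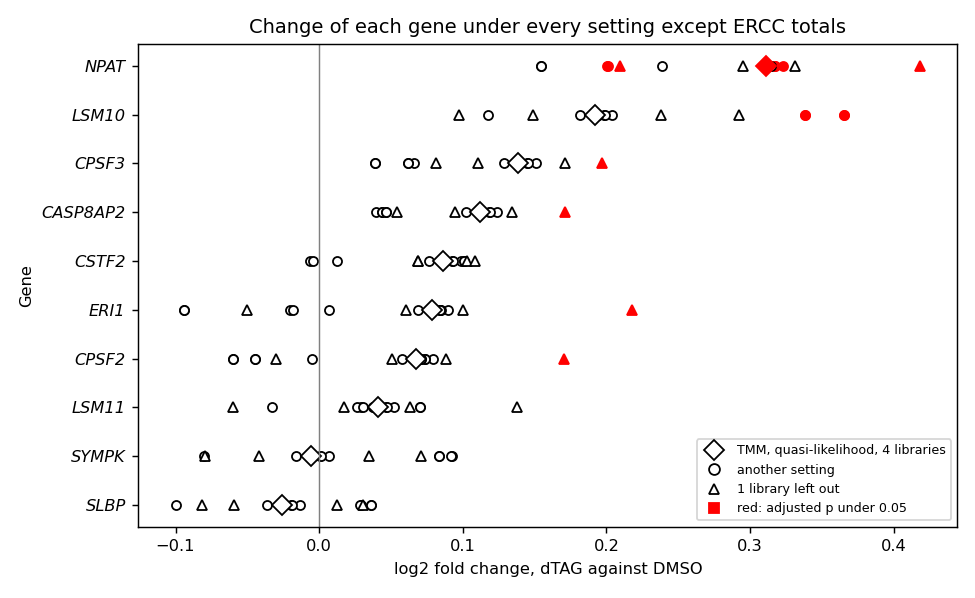
Log2 fold change of each gene (x axis) in the TMM fit (diamonds), in other settings (circles) and with 1 library left out (triangles), with red for an adjusted p under 0.05. Library sizes from the ERCC totals, which moved all genes, are left out of the plot. NPAT, LSM10, CPSF3 and CASP8AP2 stay above 0 in each setting plotted, and SYMPK and SLBP fall on both sides of 0.

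With ERCC spike-in totals as library sizes, the median tested gene stood at 0.63, with 0 genes (0.00%) called by edgeR and 229 at an unadjusted p under 0.05. The 10 genes then ranged from 0.64 (SLBP) to 0.93 (NPAT). This setting changes only the library sizes and moves all genes by a similar amount. The order of SLBP and NPAT could therefore hardly change, and its being kept is no further support.

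Per kilobase of gene, the 10 genes spanned a 14.9-fold range of nascent RNA with DMSO. SLBP had the highest level, 7.05 ± 0.391 CPM per kilobase (SD, n = 2), at the 94.0th percentile of tested genes, and no library of another gene reached its range. LSM10 and SYMPK followed at 3.03 ± 0.291 and 2.78 ± 0.207 CPM per kilobase (SD, n = 2), and their library values overlapped. CASP8AP2 and CPSF2, at 1.98 ± 0.112 and 1.97 ± 0.192, could not be told apart either. ERI1, CPSF3, NPAT and CSTF2 lay between 1.14 and 1.38 CPM per kilobase with DMSO, where the DMSO libraries of CPSF3 overlapped with those of ERI1 and of NPAT. Both DMSO libraries of NPAT, at 1.17 and 1.35, were above those of CSTF2, at 1.13 and 1.15. LSM11 was lowest at 0.474 ± 0.0104 CPM per kilobase (SD, n = 2), the 28.9th percentile, below every library of CSTF2. Thus the 2 Sm-like subunits of 1 particle differed in level, LSM10 being 82.0th in percentile. With dTAG, NPAT rose to 1.56 ± 0.0258 CPM per kilobase (SD, n = 2), above the dTAG means of ERI1 and CPSF3 (1.46 and 1.44). Over the 10 genes the DMSO median came to 1.68 CPM per kilobase, and over the whole tested set to 1.06. These levels are of nascent RNA over whole genes that range from 6.656 kb (LSM10) to 114.601 kb (ERI1), so that they do not measure mRNA.

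**Figure D4:**
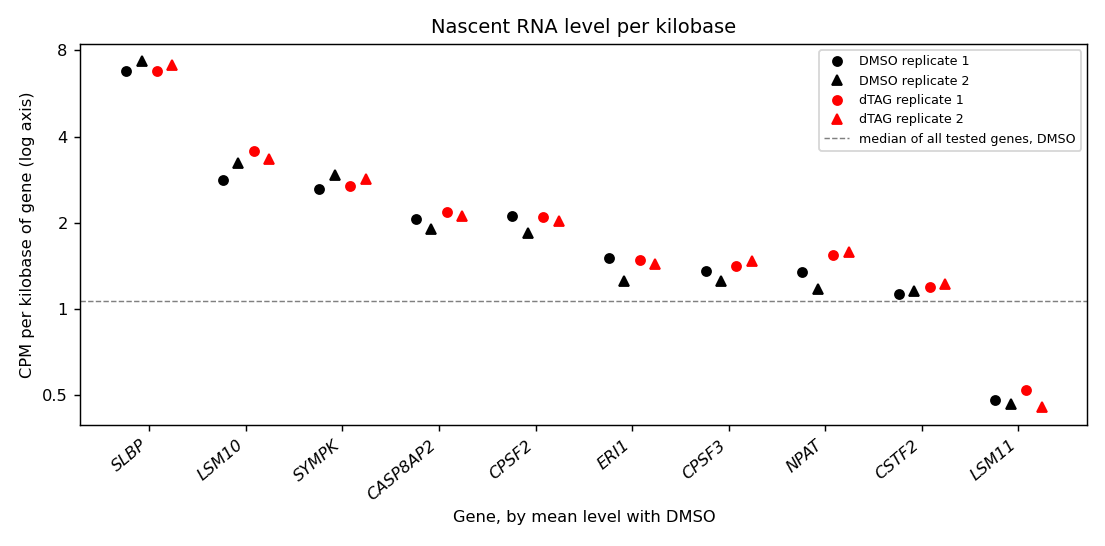
Nascent RNA level in CPM per kilobase of gene (y axis, log scale) in each library, with genes in order of their mean with DMSO (x axis). Black is DMSO, red is dTAG, circles are replicate 1 and triangles replicate 2, and the dashed line is the DMSO median of all tested genes, 1.06. SLBP stands at 6.76 to 7.33 in the 4 libraries and LSM11 at 0.453 to 0.521.

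The rest of the pathway was read from 6 lists with 52 genes, all of them tested. By edgeR, 0 of the 52 genes were called, with 9 at an unadjusted p under 0.05, which is 17.3% against 26.6% of all tested genes. DESeq2 called 3, all higher, while it called 10.1% of all genes and 5.50% higher, so that 3 of 52 is near its background. The 3 are named here after their values were seen. These were WDR33 (0.26) and CSTF3 (0.28), which belong to the polyadenylation machinery, and the casein kinase gene CSNK2A1 (0.28), on DESeq2's log2 scale. In the edgeR fit the 52 genes stood at a median of 0.019 (log2), with 31 higher and 21 lower. In each list, the genes with the highest and the lowest log2 fold change are named below.

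Among 9 histone promoter factors and NPAT regulators, the median was -0.057. CCNE2, a cyclin E gene, had 14.6 and 14.2 CPM with DMSO and 17.3 and 17.0 CPM with dTAG, a log2 fold change of 0.25 (adjusted p = 0.17, edgeR). KAT5, an acetyltransferase, stood lowest at -0.20 (adjusted p = 0.29, edgeR). HINFP, the factor of histone H4 promoters, stood at -0.17 (adjusted p = 0.30, edgeR). In the ring that the U7 snRNP shares with the spliceosome, SNRPE was highest at 0.20 (adjusted p = 0.15, edgeR). ZNF473, a U7 snRNP-associated zinc finger protein, was the lowest of that list at -0.038. Of 5 genes that tie the cap and elongation to histone processing, the cap-binding NCBP1 stood at 0.13 and the kinase CDK9 at -0.23 (adjusted p = 0.16, edgeR).

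The 15 other genes of the polyadenylation machinery, which share CPSF and CstF subunits with histone cleavage, had a median of 0.0099. CSTF3, a CstF subunit, was highest, with 211.5 and 195.3 CPM under DMSO and 240.6 and 248.9 CPM under dTAG. Its dTAG libraries were clear above its DMSO libraries, and the log2 fold change of 0.27 just missed the threshold in edgeR (adjusted p = 0.070). CPSF1, the large CPSF subunit, was lowest, with 66.3 and 72.6 CPM with DMSO and 59.1 and 56.7 CPM with dTAG. Its log2 fold change was -0.26 (adjusted p = 0.066, edgeR). FIP1L1 had only 62 to 81 counts per library and lies in the interval of another gene on the same strand, where reads were not assigned. Of 12 genes for histone mRNA translation and decay, the exonuclease XRN1 was highest at 0.24 (adjusted p = 0.082, edgeR). DDX19B, with 63 to 100 counts and a same-strand overlap as well, was lowest at -0.19. Of 5 genes for the turnover of SLBP, CSNK2A1 was highest at 0.26 (adjusted p = 0.085, edgeR) and the cyclin F gene CCNF lowest at -0.18 (adjusted p = 0.20, edgeR).

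Replication-dependent histone genes, the targets of the machinery, fell with dTAG. Of 65 replication-dependent histone genes, 40 were tested, and 38 of them were called lower by edgeR, against 3.66% of all tested genes. Their median log2 fold change was -0.60, and all 40 had both dTAG libraries below both DMSO libraries. The smallest adjusted p belonged to H3C10 at -0.86 (adjusted p = 9.3e-05, edgeR) and H3C1 at -0.81 (adjusted p = 2.7e-04, edgeR), both of which encode histone H3. H3C12, H2BC11 and H2AC13 came next, at -0.64, -0.60 and -0.67. Of the 38 called genes, 21 passed the 1.5-fold level. Summed over the 65 genes, histone RNA was 3249 and 4024 CPM with DMSO and 2621 and 2352 CPM with dTAG. Over the same libraries the 10 genes summed to 836.2 and 797.4 CPM with DMSO and 862.5 and 868.4 CPM with dTAG. Both dTAG sums of the histone genes were below both DMSO sums, although the nearest values of the conditions lay closer together than the DMSO libraries did. For the 10 genes both dTAG sums were above both DMSO sums. The intervals of the 40 histone genes ran from 313 bases (H4C1) to 29686 (H2BC18), against 36.15 kb for the median tested gene. Their GC content ran from 37.9% (H2BC4) to 67.5% (H3C13), against a median of 44.9%. Across all tested genes the log2 fold change went with gene length as well (Spearman's rho 0.42). The calls above are from the fit without trend removal. With the GC and length trends removed, the median of the histone genes was -0.37. Scaled by the ERCC totals it was 0.069, below the 0.63 of all tested genes. That setting moves all genes by a similar amount, so this order could hardly change and is no further support.

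As genes linked to S phase rather than a measure of it, 14 genes for replication and nucleotide supply were read. Of these, 0 were called by edgeR or DESeq2, with 5 at an unadjusted p under 0.05 in edgeR (35.7%, against 26.6% of all tested genes), 3 of them higher and 2 lower. Their median was -0.061. MCM6, a helicase subunit, was highest at 0.20 (adjusted p = 0.13, edgeR). RRM2, a ribonucleotide reductase subunit, had 8.48 and 11.7 CPM with DMSO and 7.94 and 6.55 CPM with dTAG, a log2 fold change of -0.48 (adjusted p = 0.075, edgeR), and overlaps a gene on its own strand. The part of cell cycle position in the histone values was not tested.

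**Figure D5:**
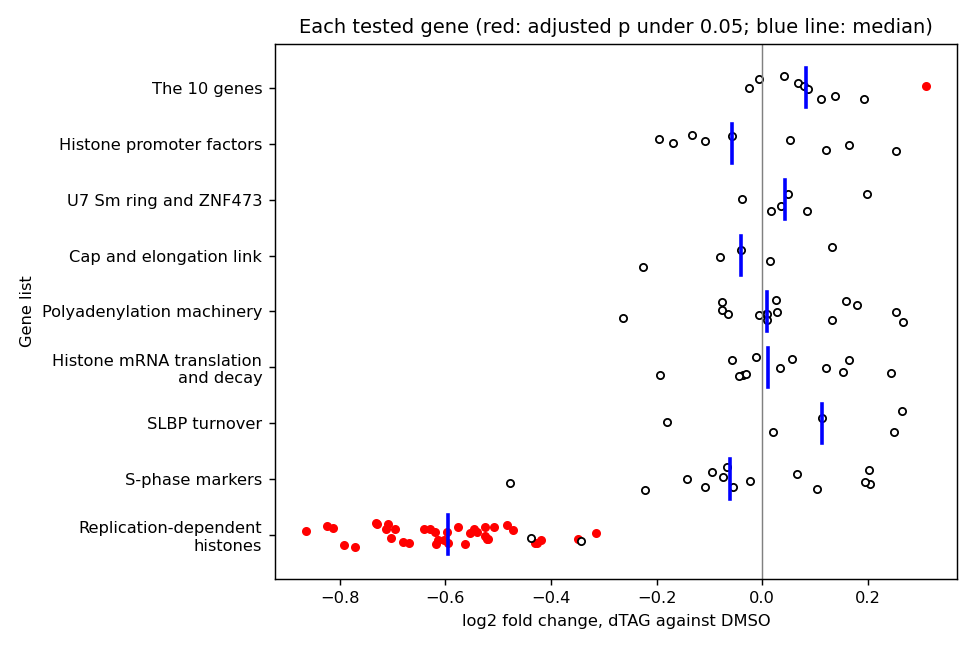
Log2 fold change of dTAG against DMSO (x axis) for each tested gene of each list (rows), with red for an adjusted p under 0.05, open symbols for the rest and a blue line at the median. The histone genes lie between -0.86 and -0.31, whereas the 10 genes lie between -0.026 and 0.31 and the 6 pathway lists between -0.26 and 0.27.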

How the data were processed

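HCT116 KAP1 dTAG libraries were made by TT-Seq, and per the labels and methods the authors checked reads with FastQC 0.11.8, used Trim Galore 0.6.4 for trimming, aligned to hg38 with STAR and assigned reads by featureCounts (Subread 1.6.3) to whole protein-coding genes and ERCC RNAs. The deposited values are raw counts without normalization. The strand setting is not given in the sources used here, and the counts of nested genes were checked for it.

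Symbols were paired with 19802 of 19901 Ensembl IDs. A minimum of 50 counts in each library left 12612 genes, which were tested in R 4.3.3 with edgeR 4.0.16 (TMM, quasi-likelihood F test, two-sided, 1 term for dTAG, no replicate block), with Benjamini-Hochberg adjustment over all of them. Standard errors are the log2 fold change divided by the root of F, and 95% intervals use the t distribution with the fit's degrees of freedom. With DESeq2 1.42.0, 12367 genes had an adjusted p. The study names spike-in normalization without its function, so ERCC settings were alternatives, as were other filters, scalings and tests, a replicate block, the removal of GC and length trends (lowess, span 0.3) and leaving out each library. These fits were run on simulated data, except ERCC totals, left-out libraries and the 2 added settings below. No outcome of the simulation is given here. It therefore does not show how well the fits, those with the ERCC factor among them, detect changes as small as those reported.

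CPM are counts scaled to the TMM library size. With 2 libraries per condition, p-values rest on the spread between cultures of 1 clone. For each gene that spread is estimated mostly from all tested genes together. Members, gene lists and alternatives were chosen with earlier results of these data known. Named genes are the 10 members, TRIM28 and, per list, up to 5 called genes with the smallest adjusted p or else the highest and lowest log2 fold change. Genes added after their values were seen are PTPRC, HINFP, FIP1L1, CSTF2T, WDR33, the start-site neighbors and the 3 histone genes with a printed stem-loop, and the crossed block and the fit of non-overlapping genes were added too.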

Additional observations from a re-analysis of the deposited data

How the results depend on the processing

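The limits come from 2 libraries per condition: standard errors of the 10 genes were 0.084 to 0.15 on the log2 scale. For most of the 10 genes, the direction between the DMSO replicates went with GC content. The 895 calls over all genes became 0 with ERCC totals as library sizes (229 at an unadjusted p under 0.05), 1364 with the ERCC factor, 1593 with the likelihood ratio test, 1417 without a count filter, 2284 with GC and length trends removed and 2627 with that and the replicate block. Leaving out 1 library gave 68 to 5489 calls, the highest without DMSO replicate 1 and the lowest without dTAG replicate 2. Of the 10 genes, 1 was called, against 0 with upper-quartile scaling, ERCC totals, the replicate block or genes without overlaps (where NPAT drops out), 2 with GC and length trends removed (with or without the block) and 0 to 5 with 1 library left out. The 0 calls in the pathway lists became 3 with DESeq2, the ERCC factor or the likelihood ratio test, 1 with upper-quartile scaling or with the ERCC factor and the likelihood ratio test, 6 with trends removed, 7 with the block as well and 0 to 18 with 1 library left out.

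The median of the 10 genes (0.082) was 0.0096 with upper-quartile scaling, 0.71 with ERCC totals, 0.038 with trends removed, 0.037 with the block as well, and 0.063 to 0.13 without 1 library. The histone median (-0.60) was 0.069 with ERCC totals, -0.33 with the ERCC factor under either test, -0.37 with trends removed with or without the block, and -0.71 to -0.44 without 1 library. The cause of these differences was not tested.

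Genes near 0 changed sign, and none was called at the changed sign, although CPSF2 and ERI1 were called higher without DMSO replicate 1. With the ERCC factor (either test), SLBP was 0.036, CPSF2 -0.060, SYMPK 0.084 and ERI1 -0.094. With trends removed, SLBP was 0.029, CPSF2 -0.045, SYMPK 0.093, CSTF2 -0.0067 and ERI1 -0.020, and with the block as well 0.028, -0.045, 0.091, -0.0046 and -0.018. With upper-quartile scaling LSM11 was -0.033 and CPSF2 -0.0047, and with ERCC totals SLBP was 0.64 and SYMPK 0.66. SYMPK was 0.0066 with DESeq2, 0.00067 with a minimum of 10 counts and 0.0011 without a filter. Without 1 library, SLBP ranged from -0.081 to 0.031, CPSF2 from -0.030 to 0.17, SYMPK from -0.080 to 0.071, ERI1 from -0.050 to 0.22 and LSM11 from -0.060 to 0.14. With 1 library left out of a condition, the lone library is assumed to vary like the others.

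Replicate numbers in the labels name replicates without a shared day or batch. The same-numbered libraries had only a weak tendency to deviate in opposite directions (r = -0.24 across genes). With the replicate number as a block, 340 genes were called, 0 of the 10 among them. Crossing the numbers, chosen after seeing the data, called 3190 genes over all and 9 in the pathway lists. For the level per kilobase, only the DMSO median over the 10 genes was compared between settings. This median was 1.68 CPM per kilobase in the main setting and 1.72 under upper-quartile scaling. Dropping DMSO replicate 1 gave 1.545, and dropping DMSO replicate 2 gave 1.786. The SD of 0.17 comes from the same 2 DMSO libraries, so dropping either could hardly move the median beyond it. Whether the levels or the order of single genes held under these settings was not tested.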
